A study of Homo sapiens with 6 samples.

Results

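The 10 genes described here encode the NF-kB subunits (NFKB1, NFKB2, RELA, RELB and REL) and the best known feedback genes of the pathway (NFKBIA, NFKBIE, NFKBIZ, TNFAIP3 and BIRC3). They were taken by symbol from the 23228 genes of the count tables, and all 10 were present and tested. RNA was sequenced from RL95-2, an established human endometrial cancer cell line. In the control group, 3 libraries came from cells kept in serum-free RPMI mixed with an equal volume of DMEM. In the other group 3 libraries came from cells in serum-free RPMI mixed with an equal volume of ADP-CM. ADP-CM is DMEM conditioned by mature adipocytes from human visceral fat. The authors took this fat from female patients with a high body mass index. Both groups were incubated for 24 h, carried no transgene or deletion by their labels, and differ by label only in whether the DMEM was conditioned. The sources used here do not say whether the replicates were separate cultures or how many fat donors gave the ADP-CM, so the p-values measure the spread between these libraries, which may be technical.

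NF-kB is a family of dimeric transcription factors that share a Rel homology domain. In resting cells the dimers are held in the cytoplasm by IkB proteins, and cytokine or microbial signals make the IKK kinases mark IkB for destruction, which frees the dimer to enter the nucleus. Several of the genes that NF-kB then switches on encode its own inhibitors, so that the response shuts itself down. In the canonical arm RELA, REL and the NFKB1 product act within minutes of cytokine exposure, and in the slower noncanonical arm the kinase NIK drives processing of the NFKB2 product, which pairs with RELB. Messenger RNA levels do not report the location of these proteins in the cell.

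Reads counted on genes numbered 16262614 to 17096135 per control library and 18103609 to 18363033 per ADP-CM library. The epithelial markers EPCAM, KRT8, KRT18, KRT19, CDH1 and PAX8 were all detected, as the labelled cell type requires, with a summed level of 4089 to 4160 CPM in control and 3441 to 3485 CPM in ADP-CM. CPM are counts per 1000000 reads, with library sizes scaled by edgeR's TMM method. Of the 8 adipocyte markers ADIPOQ and LEP had 0 reads in every library, and the summed level was 10.1 to 10.7 CPM in control and 10.4 to 12.2 CPM in ADP-CM. The 5 stromal markers summed to 59.5 to 66.6 CPM in control and 76.3 to 78.0 CPM in ADP-CM, almost all of it COL1A1, which rose, while COL1A2 and DCN had next to no reads. The 6 leukocyte markers summed to at most 1.91 CPM in any library, and the 4 endothelial markers to 60.7 to 66.4 CPM in control and 54.5 to 61.6 CPM in ADP-CM, nearly all CDH5. Of the epithelial markers KRT8, KRT18, KRT19 and CDH1 fell, PAX8 rose (log2 fold change 0.28) and EPCAM did not pass the test (0.01). The part of these marker changes and of the COL1A1 rise in the results below was not tested. In bulk RNA, fewer cells expressing a gene and less of its RNA per cell cannot be told apart.

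To show regulatory sequence in front of genes that feed back on the pathway, 250 bases before a start of NFKBIZ, TNFAIP3, BIRC3 and NFKBIA are given. They come from RefSeq's GRCh38.p14 start sites and were placed by exact match on GRCh37. For NFKBIZ the more upstream start is shown. Each runs 5′ to 3′ on the strand of its gene, and capitals mark matches to the kappaB consensus motif, the site that NF-kB dimers bind.
NFKBIZ, chr3:101546584-101546833, plus strand: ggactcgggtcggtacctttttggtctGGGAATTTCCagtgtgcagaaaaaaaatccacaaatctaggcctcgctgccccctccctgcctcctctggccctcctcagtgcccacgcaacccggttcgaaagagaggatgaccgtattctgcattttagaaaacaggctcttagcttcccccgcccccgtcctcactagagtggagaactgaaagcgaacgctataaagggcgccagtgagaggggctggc
TNFAIP3, chr6:138188146-138188395, plus strand: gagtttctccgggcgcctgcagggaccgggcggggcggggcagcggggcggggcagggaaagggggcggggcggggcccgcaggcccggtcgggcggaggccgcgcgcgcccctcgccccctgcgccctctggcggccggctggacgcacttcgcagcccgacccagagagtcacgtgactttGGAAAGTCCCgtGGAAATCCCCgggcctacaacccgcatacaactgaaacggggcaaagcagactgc
BIRC3, chr11:102187965-102188214, plus strand: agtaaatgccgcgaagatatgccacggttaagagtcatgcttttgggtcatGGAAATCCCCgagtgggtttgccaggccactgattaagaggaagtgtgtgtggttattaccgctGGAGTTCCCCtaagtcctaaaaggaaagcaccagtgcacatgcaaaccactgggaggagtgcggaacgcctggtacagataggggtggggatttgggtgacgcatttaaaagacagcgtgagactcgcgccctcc
NFKBIA, chr14:35873956-35874205, minus strand: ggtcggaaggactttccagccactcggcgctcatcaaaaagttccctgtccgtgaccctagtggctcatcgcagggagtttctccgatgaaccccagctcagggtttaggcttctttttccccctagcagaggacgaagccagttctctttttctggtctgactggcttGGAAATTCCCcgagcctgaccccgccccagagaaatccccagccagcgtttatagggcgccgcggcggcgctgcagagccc

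RefSeq windows of 250 bases before to 50 bases after a start were found for 8 of the 10 genes, 13 windows in all, since several genes have more than one start. NFKBIE and RELB were not matched. On either strand, the kappaB consensus motif occurred in 9 of the 13 windows and in 7 of the 8 genes. Over all 19518 such windows of genes in the count tables it occurred in 12.7%, and 16.1% of 13774 genes had it in at least one window. The match in NFKB1 began 49 bases before the start, the one in NFKBIA 81 bases before it and the one shown for NFKBIZ 223 bases before it. NFKBIZ has a further start downstream, not shown, with a match that began 239 bases before it. TNFAIP3 held matches that began 67 and 55 bases before its start, and BIRC3 held matches at 199 and 135 bases. In REL the matches at 47 and 46 bases overlap each other, and NFKB2 held matches in front of 2 of its 3 starts. RELA held none in either of its windows. A match describes these letters and is not evidence of binding, and the genes with a match included some that rose, NFKBIA, which fell, and some that passed no threshold.

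ADP-CM moved these genes in both directions and by small amounts. NFKBIZ, TNFAIP3, BIRC3 and REL rose, RELB, NFKBIE and NFKBIA fell, and NFKB1, NFKB2 and RELA did not pass the test. A gene counts as changed here when its p-value from the quasi-likelihood test of edgeR, adjusted by Benjamini-Hochberg over all 12663 tested genes, was under 0.01. Log2 fold changes are ADP-CM against control and are given with their standard error (SE). By that rule 4 of the 10 genes were raised, against 13.5% of all tested genes, and 3 were lowered, against 13.0%. Together 7 of 10 changed, against 26.5% of all tested genes and 32.8% of the 8120 genes with a mean of at least 20 CPM, a background chosen after the data were seen. None of the 10 passed a 1.5-fold change as well, a limit that 2.27% of tested genes passed with edgeR, 1.14% raised and 1.14% lowered, and none did so with DESeq2 or at an unadjusted p-value under 0.05. An adjusted p-value under 0.05 gave the same 4 raised and 3 lowered genes, against 18.4% and 18.3% of tested genes (36.7% together). DESeq2 at 0.01 raised 3 of the 10 and lowered 2, against 9.23% and 8.34% of the genes it tested. For 8 of the 10 genes the libraries of one group all lay above those of the other, with ADP-CM higher in 5 and lower in 3, against 45.5% of all tested genes (22.7% higher and 22.8% lower). The median log2 fold change of the 10 genes was 0.04, beside -0.002 over all tested genes.

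**Figure D1:**
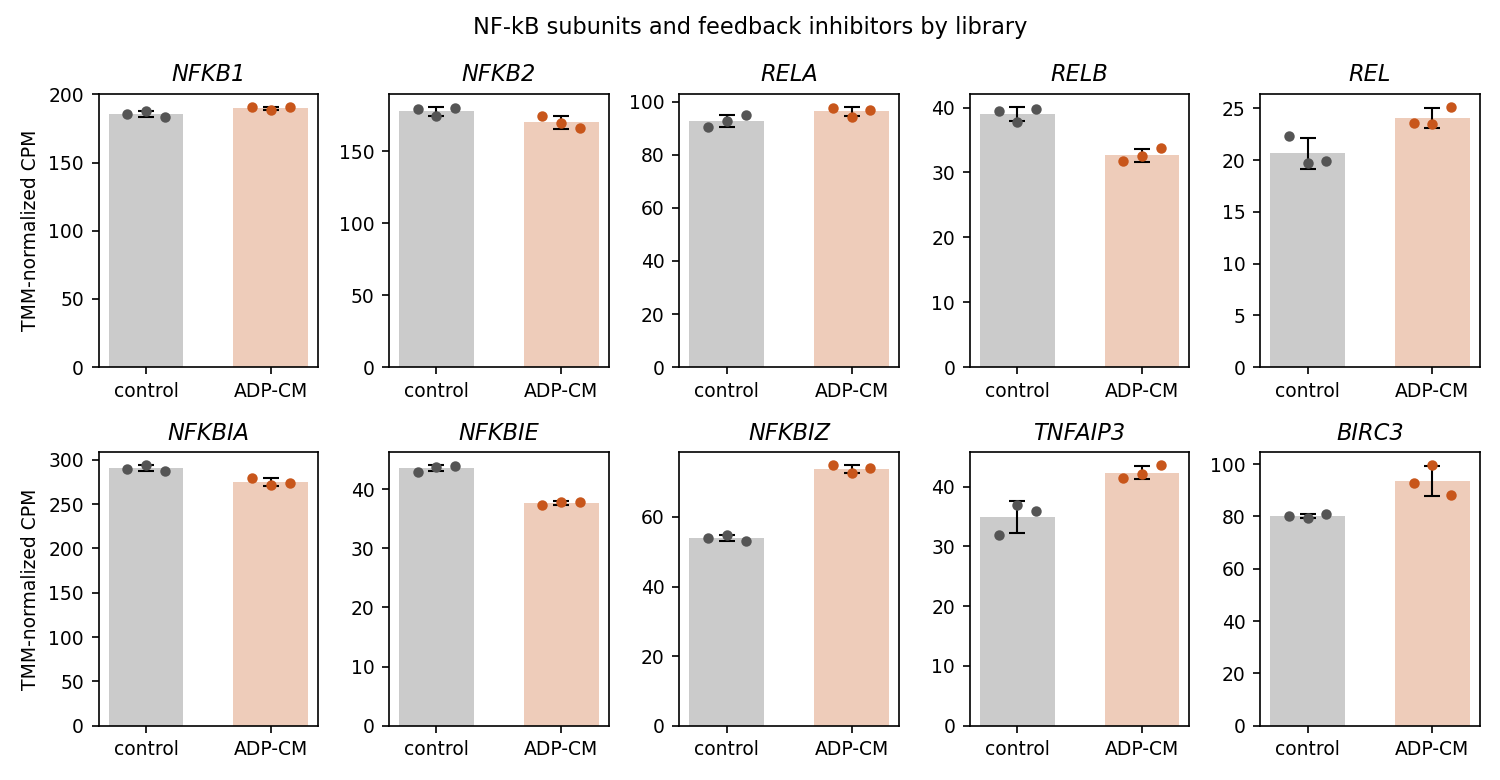
TMM-normalized CPM (vertical axes, each starting at 0) of the 10 genes in 3 control and 3 ADP-CM libraries. Points are libraries, bars are means and whiskers are SD. NFKBIZ shows the widest gap, with 53.2 to 54.9 CPM in control and 72.6 to 74.8 CPM in ADP-CM.

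**Figure D2:**
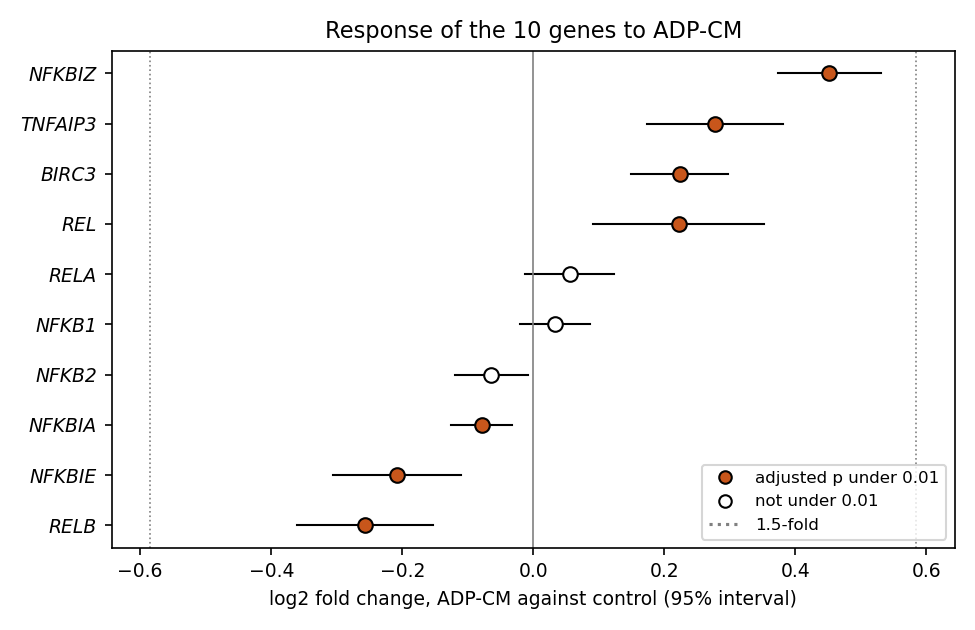
Log2 fold change of each gene in ADP-CM against control (horizontal axis) with its 95% interval derived from edgeR's test statistic, ordered by size. Filled points passed an adjusted p-value of 0.01, and all 10 points lie inside the dotted lines at 1.5-fold.

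Of the 5 subunits, 1 rose, 1 fell and 3 did not pass the test. RELB (chromosome 19, 45504719 to 45541450, GRCh37) encodes the noncanonical partner of the processed NFKB2 protein. It had 39.5, 37.7 and 39.8 CPM in control replicates 1, 2 and 3 and 31.7, 32.6 and 33.7 CPM in ADP-CM. Every ADP-CM library lay below every control library, and the level fell by 16.3%. The mean went from 39.0 ± 1.13 to 32.7 ± 1.01 CPM (SD, n = 3 each). Its log2 fold change was -0.26 (SE 0.052, edgeR adjusted p = 5.56e-05).

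REL (chromosome 2, 61108626 to 61158747) encodes c-Rel, a canonical subunit best known from lymphoid cells. It had 22.4, 19.7 and 19.9 CPM in control and 23.6, 23.5 and 25.2 CPM in ADP-CM. The groups did not overlap, but control replicate 1 stood close to the ADP-CM libraries. The log2 fold change was 0.22 (SE 0.065, edgeR adjusted p = 0.00489). Of the 4 rises this was the one whose call depended on single libraries. The adjusted p-value from edgeR became 0.0415 without control replicate 2, 0.0372 without control replicate 3 and 0.0327 without ADP-CM replicate 3. DESeq2 on all libraries also ended the call, with its own adjusted p-value of 0.0479. An annotated gene on the same strand covers 33.3% of the exonic bases of REL, so its count is uncertain.

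The other 3 subunits did not pass the test. NFKB1 (chromosome 4, 103422487 to 103538459), whose long product is processed into a DNA-binding subunit, had 185.7, 187.6 and 183.1 CPM in control and 190.6, 188.3 and 190.5 CPM in ADP-CM. Its libraries did not overlap, yet the log2 fold change was 0.03 (95% interval -0.02 to 0.09, edgeR adjusted p = 0.344). RELA (chromosome 11, 65421070 to 65430561), the main transactivating subunit, had 90.4, 92.6 and 94.9 CPM in control and 97.7, 94.3 and 97.0 CPM in ADP-CM, so that the groups overlapped. Its log2 fold change was 0.06 (95% interval -0.01 to 0.12, edgeR adjusted p = 0.201). NFKB2 (chromosome 10, 104153867 to 104162281), the precursor of the noncanonical arm, had 179.3, 174.0 and 179.8 CPM in control and 174.5, 169.7 and 165.8 CPM in ADP-CM. The groups again overlapped, and its log2 fold change was -0.06 (95% interval -0.12 to -0.01, edgeR adjusted p = 0.0638).

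The IkB group split, with 1 gene raised and 2 lowered. NFKBIZ (chromosome 3, 101546835 to 101579866) encodes IkB-zeta, an atypical nuclear member of the family that is itself induced by inflammatory signals and helps NF-kB to switch on a second set of genes. It had 53.9, 54.9 and 53.2 CPM in control and 74.8, 72.6 and 74.1 CPM in ADP-CM, and the groups were far apart. The mean went from 54.0 ± 0.875 to 73.8 ± 1.09 CPM (SD, n = 3 each), a rise of 36.8%. Its log2 fold change was 0.45 (SE 0.040, edgeR adjusted p = 5.53e-15). It was the largest change among the 10 genes and stood 158th of all tested genes when ordered by p-value. In the annotation 3.29% of its exonic bases overlap NXPE3 on the same strand.

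NFKBIA (chromosome 14, 35870285 to 35873955) encodes IkB-alpha, the classical inhibitor that NF-kB resynthesises after each activation. It had 290.1, 294.1 and 287.8 CPM in control and 280.0, 271.8 and 273.7 CPM in ADP-CM. All 3 ADP-CM libraries were lower, but the level fell by 5.32%, or -0.08 on the log2 scale (SE 0.024, edgeR adjusted p = 0.0057). Leaving out control replicate 1 or 2, or ADP-CM replicate 2 or 3, ended this call (edgeR adjusted p = 0.0167, 0.0443, 0.0185 and 0.0103), as did DESeq2 (adjusted p = 0.0198).

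NFKBIE (chromosome 6, 44225903 to 44233525) encodes IkB-epsilon, a slower feedback inhibitor of RELA and REL dimers. It had 42.9, 43.8 and 43.9 CPM in control and 37.3, 37.9 and 37.8 CPM in ADP-CM. The libraries within each group lay within 1 CPM of each other, and the groups were clearly apart. The level fell by 13.4%, or -0.21 on the log2 scale (SE 0.049, edgeR adjusted p = 0.000435).

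Both feedback genes of the ubiquitin system rose. TNFAIP3 (chromosome 6, 138188351 to 138204451) encodes A20, an enzyme that edits ubiquitin chains on signaling complexes and so ends NF-kB activation. It had 31.9, 36.8 and 36.0 CPM in control and 41.4, 42.0 and 43.6 CPM in ADP-CM. The lowest ADP-CM library was above the highest control library, although the control libraries spread widely, at 34.9 ± 2.65 CPM (SD, n = 3). The log2 fold change was 0.28, a rise of 21.2% (SE 0.052, edgeR adjusted p = 1.58e-05).

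BIRC3 (chromosome 11, 102188215 to 102210134) encodes cIAP2, a ubiquitin ligase of the TNF receptor complex that also limits cell death. It had 80.3, 79.2 and 80.9 CPM in control and 92.8, 99.7 and 88.2 CPM in ADP-CM. Here the ADP-CM libraries were the ones that spread, at 93.6 ± 5.76 CPM against 80.1 ± 0.854 CPM in control (SD, n = 3 each). The log2 fold change was 0.22, a rise of 16.8% (SE 0.037, edgeR adjusted p = 1.37e-06). BIRC2, which encodes the close relative cIAP1 and lies next to BIRC3, went the other way, from 429.8 ± 8.12 to 376.2 ± 7.5 CPM (SD, n = 3 each). That is a log2 fold change of -0.19 (edgeR adjusted p = 5.33e-11). For TNFAIP3, BIRC3 and RELA, 1.47%, 1.68% and 1.89% of the exonic bases lie opposite another gene. As the strand setting of the counting is not given in the sources used here, reads of such partners cannot be told apart.

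Per length, the inhibitor NFKBIA was by far the most abundant of the 10 transcripts and REL the least. Dividing CPM by the exonic kilobases of each gene gave 85.6 ± 0.934 for NFKBIA and 1.21 ± 0.0869 for REL in control (SD, n = 3), a 71.0-fold span that became 57.7-fold in ADP-CM. Below NFKBIA the control order was NFKB2 at 31.8, RELA at 17.0, NFKBIE at 16.9, RELB at 13.0, NFKB1 at 11.8, BIRC3 at 10.7, NFKBIZ at 9.15 and TNFAIP3 at 5.42 CPM per kilobase. In control only RELA and NFKBIE were neighbours whose libraries overlapped. In ADP-CM NFKBIZ reached 12.5 CPM per kilobase, level with BIRC3 at 12.5 and close to NFKB1 at 12.1, with overlap between NFKBIZ and BIRC3 and between BIRC3 and NFKB1, while RELB stood lower at 10.9. Both lengths used here come from GENCODE, while reads were counted on RefSeq genes. A length may thus include bases on which no reads were counted, which affects the levels, the span, and the shares and summed ratios below. The order of the middle genes depends on the length used. With the longest transcript in place of all exonic bases, NFKB1 stood at 26.4 CPM per kilobase in control, next after RELA, while NFKBIA, NFKB2 and RELA stayed at the top and TNFAIP3 and REL at the bottom.

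**Figure D3:**
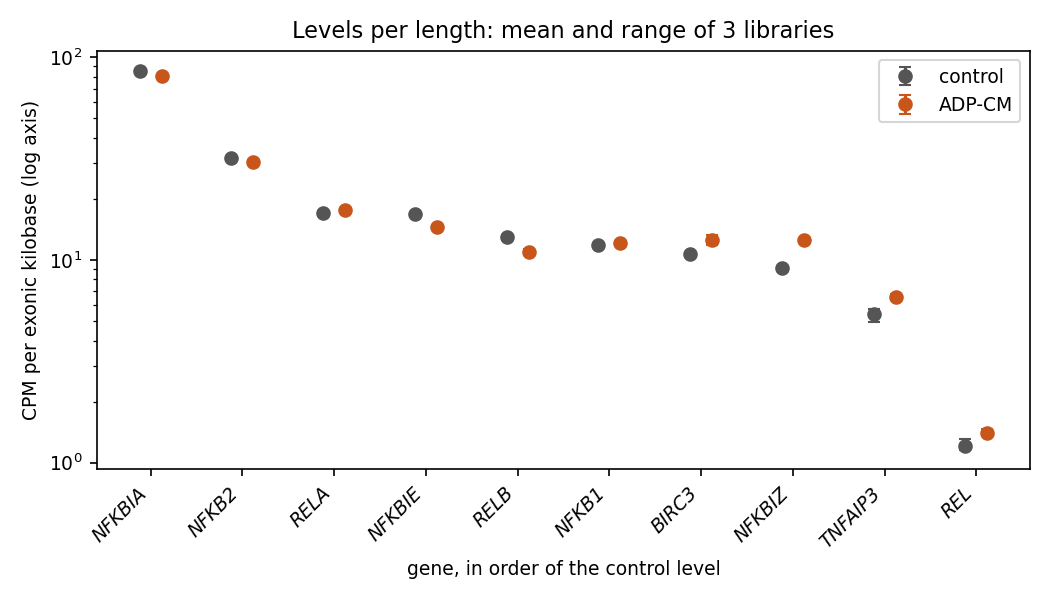
CPM per exonic kilobase (vertical log axis) of the 10 genes in order of their control level. Points are means of 3 libraries and bars run from the lowest to the highest library. NFKBIA stands at 85.6 in control and 81.1 in ADP-CM, and REL at 1.21 and 1.41.

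The makeup of the subunit pool is given as a description, without a test. Of the summed level per kilobase of the 5 subunits, RELB took 17.6%, 17.0% and 17.5% in control and 14.4%, 15.1% and 15.5% in ADP-CM. RELA went from 22.7% ± 0.513 to 24.3% ± 0.284 and NFKB1 from 15.8% ± 0.392 to 16.7% ± 0.104 (SD, n = 3 each). NFKB2 remained the largest share, at 42.5% ± 0.303 and 42.0% ± 0.834, and REL the smallest, at 1.61% ± 0.113 and 1.94% ± 0.0817 (SD, n = 3 each). The subunits summed to 74.9 ± 0.953 CPM per kilobase in control and 72.5 ± 0.693 in ADP-CM. These shares use all exonic bases, and their order depends on that length. By the longest transcript NFKB1 stood above RELB in control, at 26.4 against 17.3 CPM per kilobase.

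Ratios between genes of one library do not depend on how libraries are scaled, and 7 were compared by a two-sided exact permutation test over the 6 libraries. They were formed from levels per kilobase of all exonic bases, so their size depends on that length. With 3 libraries against 3 the smallest p-value is 0.1, so no ratio could pass 0.05. The RELB to RELA ratio was 0.796, 0.742 and 0.764 in control and 0.591, 0.629 and 0.633 in ADP-CM, with no overlap. The log2 difference was -0.31, with an exact p-value of 0.1, or 0.14 adjusted over the 7 ratios. The noncanonical pair of NFKB2 and RELB against NFKB1, RELA and REL went from 1.52, 1.45 and 1.51 to 1.33, 1.35 and 1.30, again with no overlap and the same exact p-values. NFKBIA to RELA went from 5.16, 5.11 and 4.88 to 4.61, 4.64 and 4.54, while TNFAIP3 to RELA went from 0.299, 0.337 and 0.321 to 0.359, 0.378 and 0.381. Relative to RELA, every ADP-CM library was thus lower for NFKBIA and higher for TNFAIP3 than every control library (exact p-value 0.1 for each, 0.14 adjusted). NFKB2 to NFKB1 differed by -0.10 on the log2 scale, with the same exact p-values and no overlap.

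The remaining ratios overlapped. REL to RELA was 0.0788, 0.0678 and 0.0667 in control and 0.0769, 0.0792 and 0.0827 in ADP-CM (exact p-value 0.2, adjusted 0.233). The summed feedback genes NFKBIA, NFKBIE, NFKBIZ and TNFAIP3, among which NFKBIZ can also act with NF-kB as a coactivator, against the summed subunits were 1.55, 1.61 and 1.54 in control and 1.58, 1.58 and 1.59 in ADP-CM (exact p-value 0.4, adjusted 0.4). NFKBIA made up 85.6 of the 117.1 CPM per kilobase of these feedback genes in control, and the log2 difference of the summed ratio was 0.02.

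**Figure D4:**
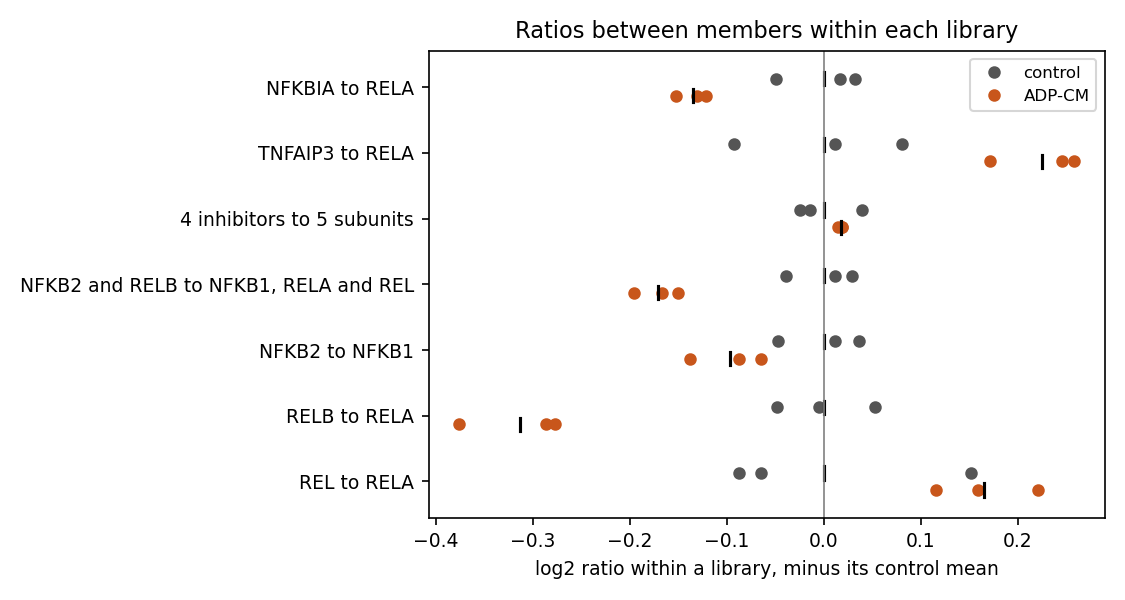
Log2 ratios of levels per kilobase within each library, minus the control mean of that ratio (horizontal axis), for the 7 ratios. Points are libraries, black ticks are group means, and the 4 inhibitors on the axis are the feedback genes NFKBIA, NFKBIE, NFKBIZ and TNFAIP3. RELB to RELA lies farthest from 0 in ADP-CM, at -0.31.

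Known NF-kB target genes moved in both directions, but the share that fell was near that of all tested genes. Of 39 target genes, a list that overlaps gene sets already examined in these libraries, 29 had enough reads to be tested. Of these 16 were raised (55.2%, against 13.5% of all tested genes) and 5 lowered (17.2%, against 13.0%). The median log2 fold change was 0.13. With a fold change over 1.5 as well, 9 were raised and 1 lowered, against 1.14% of all tested genes in each direction. DESeq2 at 0.01 raised 13 and lowered 4, against 9.23% and 8.34% of the genes it tested. A further 10, CXCL10, IL6, IL1B, CSF2, VCAM1, SELE, BCL2A1, MMP9, PTX3 and SAA2, had too few reads to test. The smallest p-values belonged to the chemokine gene CXCL2, which went from 58.4 ± 0.859 to 103.0 ± 3.64 CPM (SD, n = 3 each), the cytokine gene IL1A, with 21.1 ± 1.69 and 50.0 ± 2.42 CPM, the chemokine gene CXCL1, with 58.0 ± 1.18 and 94.8 ± 3.02 CPM, and the stress gene IER3, with 70.1 ± 1.73 and 109.6 ± 4.8 CPM. All 4 were higher in every ADP-CM library than in any control library. Log2 fold changes were 0.82, 1.25, 0.71 and 0.64, with adjusted p-values of at most 1.5e-23 in edgeR's quasi-likelihood test.

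The targets that fell were CCL2, SDC4, IRF1, CD83 and BCL2L1, named here after their values were seen. CCL2, a monocyte chemokine, had a log2 fold change of -1.02, SDC4, a cell surface proteoglycan, -0.44, and IRF1, an interferon-linked transcription factor, -0.33. For CD83 and the survival gene BCL2L1 it was -0.15 and -0.14. CD83 was no longer past the threshold without any one of the control libraries or ADP-CM replicate 1, where edgeR's adjusted p-value was 0.011 to 0.0127. Among the rises CFB, CCL5 and ICAM1 are also named after their values were seen. The size of the CFB rise and its call rested on ADP-CM replicate 3, which held 178 reads beside 27 and 26 in the other ADP-CM libraries. Those libraries, at 1.49 and 1.42 CPM, still lay above the highest control library at 1.01 CPM. Without replicate 3 the log2 fold change went from 2.54 to 1.01 and the adjusted p-value from edgeR was 0.0108. CCL5 lost its call without control replicate 1 (0.0292 in the same edgeR test) and ICAM1 without control replicate 2 (0.0372). Every other rise of the list kept its call in all 14 processing alternatives given at the end. The falls of CCL2, SDC4, IRF1 and BCL2L1 did so too.

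Upstream of the subunits, the shares of genes raised and lowered at the 0.01 threshold were not above those of all tested genes. Among 22 tested receptors and adaptors, 2 were raised and 1 lowered (9.09% and 4.55%, against 13.5% and 13.0% of all tested genes). IRAK1, a kinase of the IL1 and Toll-like receptor complex, rose from 267.8 ± 5.09 to 304.4 ± 9.38 CPM (SD, n = 3 each). Its log2 fold change was 0.19 (edgeR adjusted p = 4.78e-09). TNFRSF12A, the receptor for TWEAK and an activator of the noncanonical arm, fell by 0.12 on the log2 scale, from 245.2 ± 2.64 to 225.3 ± 2.59 CPM (SD, n = 3 each). TLR6, a Toll-like receptor with 64 to 117 reads per library, had a log2 fold change of 0.50, and its call did not survive leaving out control replicate 1 or 3 or ADP-CM replicate 2 (edgeR adjusted p = 0.0127, 0.0205 and 0.0406). TLR2 and TLR4 were too low to test.

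Of 16 kinase and linear ubiquitin ligase genes 1 was raised and 2 were lowered (6.25% and 12.5%, against 13.5% and 13.0% of all tested genes). MAP3K14 encodes NIK, the kinase of the noncanonical arm. It fell from 107.9 ± 2.24 to 90.0 ± 3.54 CPM (SD, n = 3 each). Its log2 fold change was -0.26 (edgeR adjusted p = 4.39e-09), and the groups did not overlap. IKBKB, the catalytic IKK subunit of the canonical arm, fell by 0.13 on the log2 scale, a call lost when control replicate 1 or 2 or ADP-CM replicate 1 was left out (edgeR adjusted p = 0.0233, 0.0507 and 0.0403). MAP3K8, a kinase bound by the NFKB1 precursor, had a log2 fold change of 0.23 with an edgeR adjusted p of 0.00965, and its call was lost without control replicate 1 or 2 or ADP-CM replicate 1 or 2 (edgeR adjusted p = 0.0186 to 0.094). The list had a median log2 fold change of -0.02.

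None of the 3 other IkB family genes NFKBIB, NFKBID and BCL3 changed by edgeR, by DESeq2 or at an unadjusted p-value under 0.05, with log2 fold changes of 0.07, 0.15 and -0.15. Among 16 tested other negative regulators, 2 were raised and 3 lowered (12.5% and 18.8%, shares near the 13.5% and 13.0% of all tested genes), with a median log2 fold change of 0.04. ZC3H12A, which encodes an RNase that degrades cytokine messages, rose from 36.8 ± 2.32 to 55.0 ± 1.96 CPM (SD, n = 3 each). The log2 fold change was 0.58 (edgeR adjusted p = 1.09e-15). This value is above that of NFKBIZ, a difference that was not tested. PDLIM2, named after its value was seen, had a log2 fold change of 0.18 and lost its call without control replicate 2 or ADP-CM replicate 2 (edgeR adjusted p = 0.0589 and 0.0109). CYLD, a deubiquitinase, fell by 0.26 on the log2 scale, and TRAF1, an adaptor with at most 39 reads in any library, by 1.29, beside the fall of BIRC2 given above.

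**Figure D5:**
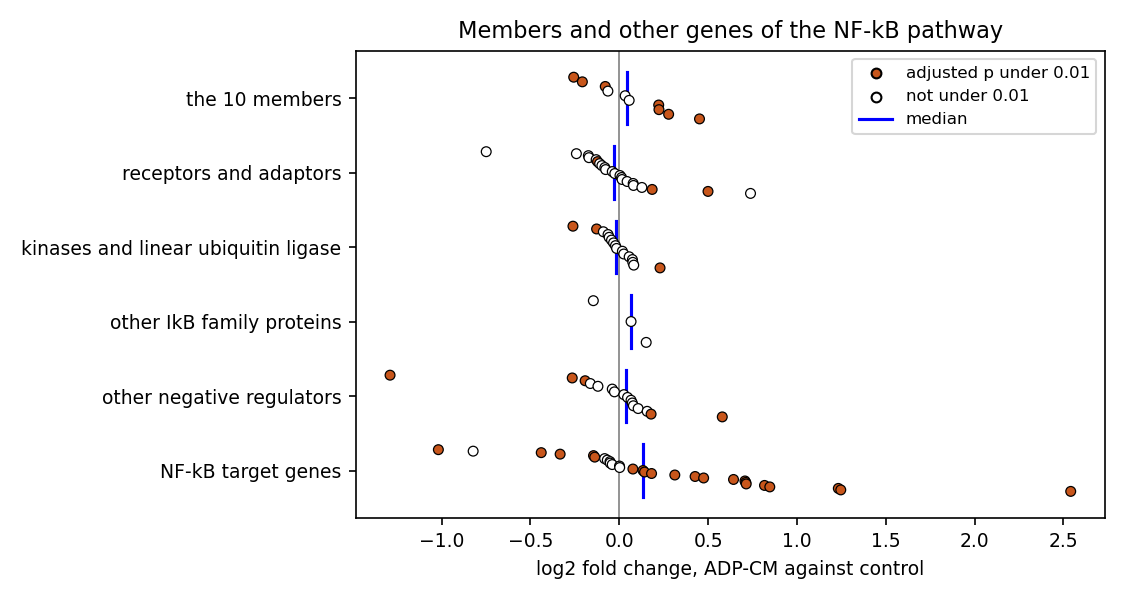
Log2 fold change in ADP-CM against control (horizontal axis) of the 10 genes and of the tested genes of 5 lists of other pathway genes. Each point is a gene, filled where the adjusted p-value was under 0.01, and blue lines are medians. The target genes have a median of 0.13. The point farthest to the right is CFB, and the size of its rise rests on 1 library.

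Genes whose profile over the 6 libraries was most like that of NFKBIZ, the gene with the largest change, were CD44, STOM and SOD2. Among 9560 other genes with a mean of at least 10 CPM, their centred log2 CPM differed from those of NFKBIZ by a root mean square of 0.014, 0.0202 and 0.0204. CD44, a cell surface receptor for hyaluronan, went from 304.2 ± 3.99 to 411.4 ± 1.75 CPM, STOM from 55.9 ± 1.7 to 75.9 ± 0.728 CPM, and SOD2, a mitochondrial antioxidant enzyme that is also on the target list, from 82.4 ± 2.59 to 110.7 ± 1.47 CPM (SD, n = 3 each). The likeness describes 6 libraries in 2 groups and is mostly the size of the rise.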

How the data were processed

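RL95-2 libraries of 2 groups, 3 control and 3 ADP-CM, were grouped by the submitters' labels. Raw read counts per gene were deposited for each library, which the authors made with TopHat2 (alignment to hg19) and HTSeq (counting on RefSeq genes). Versions and the strand setting of the counting are not given in the sources used here, and HTSeq leaves out reads that align to several places. Summary lines that name no gene, such as reads on no gene (10.2% to 10.3% of control and 11.5% to 11.6% of ADP-CM reads), entered neither library sizes nor tests.

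In R 4.3.3, edgeR 4.0.16 fitted all genes that passed filterByExpr (12663 of 23228), with TMM normalization and the quasi-likelihood test, and p-values were adjusted by Benjamini-Hochberg. The common biological coefficient of variation was 1.67%, and replicate libraries differed by more than sampling noise. The fit was tested on simulated counts with changes of at least 1.5-fold. None of the 10 genes changed that much, so this check does not show how changes of their size are called. Alternatives were DESeq2 1.42.0, other size factors, a robust fit, other filters, an adjusted p-value of 0.05, the replicate number as a block and each library left out. Positions, exonic lengths and overlaps came from GENCODE release 44 on GRCh37. The genes and lists were chosen with earlier results of these data known. The text names all 10 genes, from each list up to 4 changed genes by p-value, and the 3 genes most like the one with the largest change.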

Additional observations from a re-analysis of the deposited data

Results flagged for a closer look

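The share of reads that HTSeq placed on no gene was higher in ADP-CM, at 11.5% ± 0.0332 beside 10.3% ± 0.0525 in control (SD, n = 3 each), and the groups did not overlap. These reads enter no comparison of the report. The part of this difference in the gene results was not tested.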

How the results depend on the processing

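Of the 10 subunit and feedback genes, 8 kept their direction and their side of the threshold in all 14 alternatives, and REL and NFKBIA kept their direction. The count of raised genes was 3 or 4 and of lowered genes 2 or 3 throughout. The marker genes, CD44 and STOM were not followed through the alternatives. Of the 32 changed genes of the 5 pathway lists, 24 kept their call in every alternative that could test them, and none reversed. The 8 that did not were TLR6, IKBKB, MAP3K8, PDLIM2, CD83, ICAM1, CCL5 and CFB, and each of them lost its call with DESeq2, as did REL and NFKBIA. Over all genes DESeq2 raised 1124 and lowered 1015, against 1707 and 1650 with edgeR. No ratio reversed in 56 alternatives. For ratios between single genes, another length cannot change the log2 difference between the groups, so such an alternative could not have reversed them. With DESeq2 the raised receptors and adaptors numbered 1, the kinase and ligase genes 0 raised and 1 lowered, and the raised negative regulators 1. With at least 10 reads in every library 0 kinase and ligase genes were raised. The robust edgeR fit lowered 2 receptors and adaptors, and an adjusted p-value of 0.05 lowered 3 of them and raised 5 negative regulators. Leaving out single libraries gave 1 to 2 raised and 1 to 2 lowered receptors and adaptors, 0 to 1 raised and 1 to 2 lowered kinase and ligase genes, and 1 to 3 raised negative regulators. With the replicate number as a block, 2 receptors and adaptors were lowered and the call of none of the 42 genes changed. Deviations of same-numbered libraries correlated at 0.009 to 0.1 over genes, and 5 of 6 libraries were closest to their own number. These values do not settle whether the numbers mark pairs. The numbers were not taken as pairs, because the sources used here do not state that they mark a shared batch. The cause of these shifts was not tested. Lists of few called genes move with single calls, levels per kilobase depend on the length used, and exact tests of 3 against 3 libraries cannot go below 0.1.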
